A study of Caenorhabditis elegans with 4 samples.

Results

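The compact sites of the transcription factor NFYA-1 were taken as the peaks of the combined list that measured at most 400 bp and overlapped, by 1 bp or more, at least 1 peak of each ChIP replicate. There were 548 of them among 4256 combined peaks, and 1000 when presence in replicate 1 was enough, without replicate 2. The 1504 combined peaks wider than 400 bp that were likewise found in both replicates served for comparison and are called wider sites. The members were thus chosen by their combined width and by their presence in the replicate lists, so widths, q values and shares found in both replicates describe them and are given with no test.

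The factor NF-Y, to which NFYA-1 belongs as its A subunit, is a trimer that binds CCAAT boxes in promoters. Its B and C subunits form a dimer with histone folds, and the A subunit joins it and makes the contacts specific to the CCAAT sequence. NF-Y is known in animals as an activator of many housekeeping and cell cycle genes. A factor held at a single position in the DNA usually gives a peak about as wide as the sonicated fragments, while several bound positions close together can merge into a wider one.

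The chromatin came from 4 samples, namely 2 NFYA-1 ChIP samples and 2 input samples, of which the inputs have 0 peak lists here and entered no comparison. All were L3 hermaphrodites of strain OP404 grown at 20 °C on bacteria and fixed with 2% formaldehyde. All carried the mutation unc-119(ed3) III and the transgene wgIs404, introduced by bombardment, which holds unc-119(+) and nfya-1 fused to TY1-GFP-3xFLA. Antibodies against GFP precipitated the fusion protein, so the sites are those of the tagged transgene product in whole larvae. A site bound in few cells and a site bound weakly in many cannot be told apart in such material. Whether separate cultures gave the replicates is not stated in the labels, and their agreement may be partly technical.

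Coordinates are those of WormBase WS180, and no sequence or gene annotation of that build was used, so sites are named by position and carry no gene. The authors' q values stand in for strength, as −log10 q or as a rank within a list, counted upward from the smallest q value. The lists hold no read counts, and the depth behind a peak is unknown. Intervals on shares and medians are exact 95% intervals, those on differences of shares are Newcombe intervals, and all treat sites as independent and cover counting error only.

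Presence in both replicates was part of the rule, and its shares are given as a description. Of the 1612 combined peaks of at most 400 bp, 548 (34.0%, 31.7 to 36.4%) were in both replicates, 452 in replicate 1 alone, 35 in replicate 2 alone and 577 in neither. Of the 2644 wider peaks, 56.9% were in both, and of all combined peaks 48.2%. The combined list was also divided by q value into 4 strength classes of 25% each, class 1 being the strongest. All 181 narrow peaks of class 1 were in both replicates, as were 882 of 883 wide ones. In class 2 the shares were 76.4% (71.8 to 80.6%) of narrow and 75.1% (71.7 to 78.3%) of wide peaks, and in class 3 they were 16.1% (13.0 to 19.6%) and 17.3% (14.3 to 20.7%), with intervals that overlapped in both classes. Only 1 of the 548 compact sites came from class 4.

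Compact sites made up 26.7% of the 2052 sites in both replicates. Their combined widths ran from 210 to 400 bp with a median of 355 bp (interquartile range 327 to 378 bp). The limit cuts through a continuous range of widths. The 62 members of 391 to 400 bp had a median −log10 q of 18.7 in the combined list, 10.5 in replicate 1 and 8.40 in replicate 2. The 64 wider sites of 401 to 410 bp, just beyond the limit, had 22.2, 13.9 and 9.32. The members of 400 bp with the smallest q values lay on II from 13321101 to 13321500, on I from 12212106 to 12212505 and on V from 3315317 to 3315716. The sites of 401 bp with the smallest q values lay on II from 3370037 to 3370437, on II from 9745986 to 9746386 and on I from 6441200 to 6441600.

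The strongest compact site lay on chromosome III from 8461335 to 8461720. Its widths were 386 bp (combined), 378 bp (replicate 1) and 371 bp (replicate 2), and the replicate centres lay 1.5 bp apart. Its q value was 2.21e-97 in the combined list (rank 59), 8.92e-66 in replicate 1 (rank 48) and 8.73e-63 in replicate 2 (rank 34). It was thus among the 50 strongest peaks of both replicates although it was one of the narrower sites.

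The next 3 compact sites by q value lay on II, V and I. On II, the site from 13321101 to 13321500 had a −log10 q of 85.2 in the combined list (rank 78), 52.0 in replicate 1 and 47.6 in replicate 2. On V, the site from 4539874 to 4540249 had 76.1 (rank 104), 51.4 and 44.1 in the same order. On I, the site from 13617138 to 13617535 had 71.0 (rank 118), 47.8 and 32.2. All 3 had a smaller −log10 q in replicate 2 than in replicate 1. On IV the leading site, from 14365861 to 14366211, ran the other way, with 30.6 in replicate 1 and 35.2 in replicate 2 and 57.9 in the combined list (rank 196). The ranks in replicates 1 and 2, lists of 3037 and 2188 peaks, did not all follow −log10 q. They were 85 and 64 on II, 91 and 76 on V, 103 and 151 on I, and 271 and 125 on IV.

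The next 2 members by strength on each autosome were as follows. They lay on I from 3007956 to 3008346 (rank 175 in the combined list) and from 9141603 to 9141966 (rank 228), and on II from 11910466 to 11910855 (rank 264) and from 14154258 to 14154650 (rank 355). On III they lay from 7823248 to 7823614 (rank 176) and from 4395843 to 4396237 (rank 253). On IV they lay from 7510835 to 7511213 (rank 269) and from 613152 to 613542 (rank 279), and on V from 4168070 to 4168418 (rank 331) and from 16959001 to 16959366 (rank 395). The 10 were between 349 and 395 bp wide. Those at ranks 175 and 176 came ahead of the leading site on IV, at rank 196.

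On X the leading compact sites ranked lower. The strongest, from 4469287 to 4469660, had a −log10 q of 31.7 in the combined list (rank 564), 19.9 in replicate 1 and 10.8 in replicate 2. The next, from 10656525 to 10656918, had 24.3 in the combined list (rank 816), 19.7 in replicate 1 and 10.6 in replicate 2. The one after that, from 13328800 to 13329196, had 20.1 (rank 1017), 10.2 and 6.40.

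The replicate peaks at compact sites were centred closer to each other than those at wider sites taken as a whole. The median distance between the centre of the replicate 1 peak and that of the replicate 2 peak was 11.5 bp (10.5 to 13.5 bp) at compact sites and 29 bp (26.5 to 31.5 bp) at wider sites. At 5 compact sites the centres coincided. The distance was at most 10 bp at 249 of 548 compact sites (45.4%) and at 336 of 1504 wider sites (22.3%). It was at most 25 bp at 81.0% of compact and 45.7% of wider sites. It was at most 50 bp at 533 compact sites (97.3%, 95.5 to 98.5%) and at 1011 wider sites (67.2%, 64.8 to 69.6%), a difference of 30.0 percentage points (27.1 to 32.7). A wide peak has more room to shift, and the distance was therefore also taken as a percentage of the mean replicate width. It was then 3.55% (3.16 to 4.14%) at compact sites and 4.96% (4.66 to 5.40%) at wider sites, so the order remained for the sets as a whole. This percentage also differed little near the limit, at 3.56% (3.02 to 4.27%) at 351 to 400 bp and 3.77% (3.22 to 4.56%) at 401 to 450 bp. At 391 to 400 bp it was 4.02% (2.97 to 5.49%), and at 401 to 410 bp 3.26% (2.45 to 4.87%).

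The distance increased gradually with width and showed no step at the limit of 400 bp. Its median was 7.5 bp (5.5 to 13 bp) at the sites at most 300 bp wide, 11.5 bp (9.5 to 14 bp) at 301 to 350 bp and 12.5 bp (10.5 to 14.5 bp) at 351 to 400 bp. It was 14.5 bp (12.5 to 17.5 bp) at 401 to 450 bp, 19.75 bp (15.5 to 24 bp) at 451 to 500 bp and 136 bp (100.5 to 213 bp) above 1500 bp. Next to the limit the order was the other way, with 14.75 bp (11 to 20 bp) at the 62 members of 391 to 400 bp and 12.5 bp (9 to 18.5 bp) at the 64 wider sites of 401 to 410 bp, and these intervals overlapped. The short distance was thus shared by the wider sites nearest in width to the members.

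**Figure D1:**
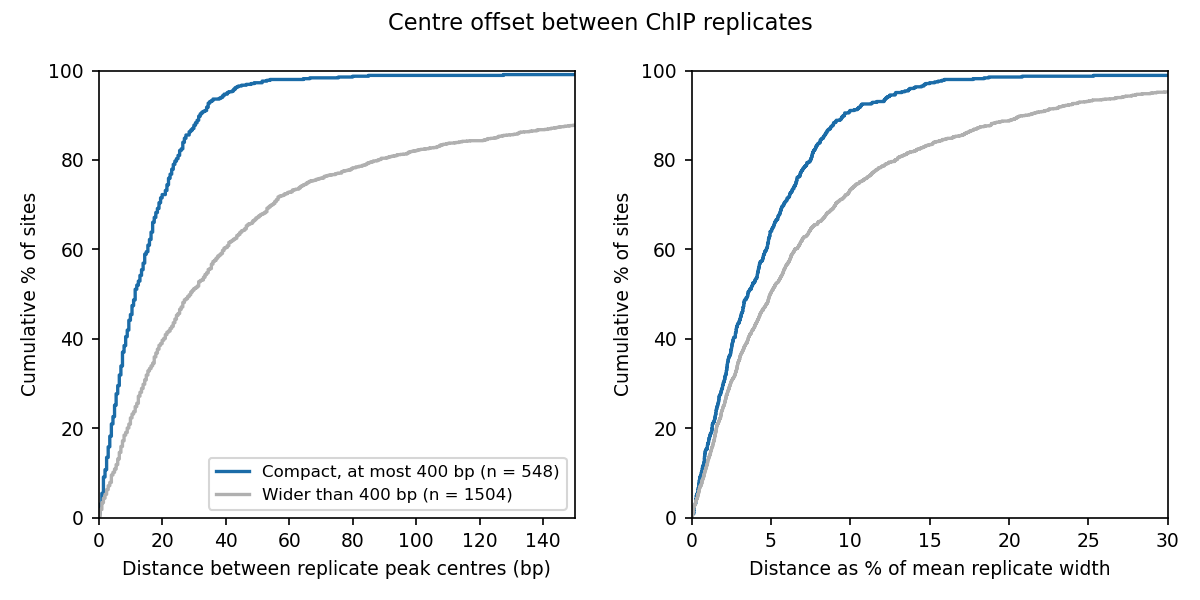
Cumulative percentage of sites against the distance between the centres of the replicate 1 and replicate 2 peaks, in bp on the left and as a percentage of the mean replicate width on the right, for 548 compact and 1504 wider sites. The compact curve lies to the left in both panels, with medians of 11.5 bp against 29 bp and 3.55% against 4.96%; larger distances run beyond the axes.

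No side was favoured. The replicate 2 centre lay at the higher coordinate at 256 compact sites and at the lower at 287, and the median signed distance was −1 bp (−2.5 to 1 bp) at compact and −1.5 bp (−4 to 0.5 bp) at wider sites. The differences at the 2 edges of a site were nearly uncorrelated at compact and at wider sites. At compact sites the start differed by a median of 4 bp (interquartile range −11 to 19 bp) and the end by −5 bp (−19 to 9 bp), replicate 2 minus replicate 1. Spearman's rho between the start and end differences was 0.028 across the 548 compact sites and −0.012 across the 1504 wider sites. Both values describe sites from the same 2 lists.

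The median distance between centres was smallest at the strongest compact sites. It was 8.5 bp (7.5 to 10.5 bp) at the 181 members of strength class 1, 12.5 bp (10.5 to 14.5 bp) at the 285 of class 2 and 16.5 bp (12 to 21.5 bp) at the 81 of class 3. At wider sites of classes 1 to 3 it was 27 bp (24.5 to 31.5 bp), 29 bp (25 to 33.5 bp) and 44 bp (31 to 56 bp). In each of these classes the intervals of compact and wider sites stood apart, while those of compact sites in neighbouring classes met or overlapped.

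A few compact sites had replicate peaks of unlike extent. The distance exceeded 100 bp at 6 of 548 members, from 127.5 to 192.5 bp, and at 269 of 1504 wider sites. At all 6 members 1 or both replicate peaks were wider than 400 bp. Such a peak was found at 42 members in all, and at 30 of these the distance was at most 50 bp. The site on IV from 10734536 to 10734871 was called over 698 bp by replicate 1 and 285 bp by replicate 2, the replicate 2 centre lying 192.5 bp lower. The site on III from 11036015 to 11036357 showed the converse, with 327 bp against 655 bp and a distance of 167 bp. The site on V from 4810649 to 4811023 had 665 bp in replicate 1 and 411 bp in replicate 2 and a distance of 177 bp. The combined widths of these sites were 336, 343 and 375 bp.

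The 5 members with coinciding centres are represented by the 3 with the smallest q values. The site on I from 8256578 to 8256954 had the same centre in both replicates, with a replicate 1 width of 369 bp, a replicate 2 width of 359 bp and a combined rank of 392. The sites on III from 3067910 to 3068298 (rank 511) and on I from 7298888 to 7299207 (rank 740) were centred alike as well.

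Each compact site corresponded to a single peak in each replicate. This held for 548 of 548 compact sites (99.3 to 100%) and for 1457 of 1504 wider sites (96.9%, 95.9 to 97.7%), counting also that the replicate peak touched no other combined peak. A combined peak of at most 400 bp has little room to overlap 2 peaks of a replicate. The width rule thus nearly fixed this outcome, which says little on how well the replicates agree. The median width at compact sites was 331 bp (327 to 336 bp) in replicate 1 and 323 bp (318 to 327 bp) in replicate 2. At wider sites it was 573.5 bp in replicate 1 and 527 bp in replicate 2. Both replicate peaks measured at most 400 bp at 506 compact sites (92.3%) and at 136 wider sites (9.04%). Of the 42 compact sites at which a replicate peak was wider, 29 had it in replicate 1 alone.

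Widths of the replicates were closer at compact sites than at wider sites taken as a whole. The absolute log2 ratio of the replicate widths had a median of 0.099 (0.092 to 0.11) at compact sites and 0.16 (0.15 to 0.17) at wider sites. It was 0.11 (0.094 to 0.12) at 351 to 400 bp and 0.13 (0.11 to 0.15) at 401 to 450 bp. Next to the limit the intervals overlapped, with 0.097 (0.061 to 0.13) at 391 to 400 bp and 0.12 (0.084 to 0.17) at 401 to 410 bp. The wider sites nearest in width thus had similar ratios. The widths were within 1.5 times of each other at 539 compact sites (98.4%, 96.9 to 99.2%) and at 1325 wider sites (88.1%, 86.4 to 89.7%). They were within 10% at 62.2% of compact and 44.7% of wider sites. The central 90% of widths at compact sites ran from 265 to 409 bp in replicate 1 and from 269 to 381 bp in replicate 2. The limit on combined width thus left little room for large ratios, and these shares are partly set by the rule. Replicate 2 gave the narrower peak at 316 compact sites (57.7%, 53.4 to 61.8%) and at 1016 wider sites (67.6%, 65.1 to 69.9%). The bases shared by the 2 replicate peaks made up a median of 89.6% of the bases that either covered at compact sites and 86.9% at wider sites. The rank order of widths was kept less well among compact sites, with Spearman's rho of 0.55 over 548 compact and 0.82 over 1504 wider sites, where the compact widths span a far narrower range.

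**Figure D2:**
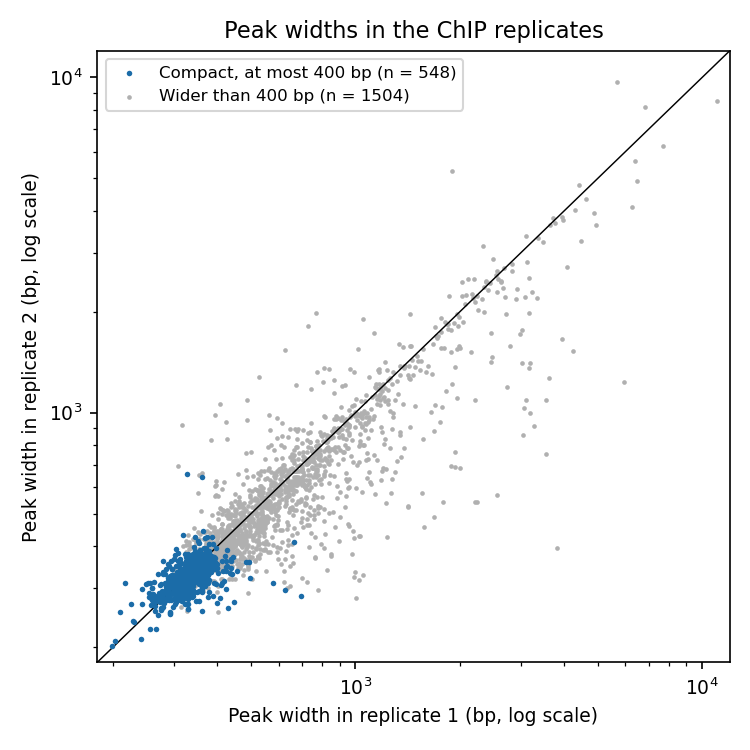
Width of the replicate 2 peak against that of the replicate 1 peak at each site, both on log scales in bp, with the line of equal width. Compact sites (548) cluster around medians of 331 bp in replicate 1 and 323 bp in replicate 2, and wider sites (1504) scatter more and more often lie below the line.

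The largest ratios of width belonged to sites with a long peak in 1 replicate. Besides the sites on IV and III above, with log2 ratios of −1.29 and 1.0, the site on IV from 12755469 to 12755771 had 628 bp in replicate 1 and 295 bp in replicate 2 (log2 ratio −1.09). Its nearest combined peak, which was also a compact site, stood 964 bp away. The narrowest member lay on III from 3857061 to 3857270, at 210 bp in the combined list. Its peak spanned 202 bp in replicate 1 and 208 bp in replicate 2, and its −log10 q was 11.2 in the combined list, 5.67 in replicate 1 and 5.76 in replicate 2. The next narrowest, on IV from 15634256 to 15634496, had a combined width of 241 bp, and 210 and 254 bp in replicates 1 and 2.

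The combined peak was wider than both replicate peaks at 374 compact sites (68.2%) and at 1140 wider sites (75.8%). It held both replicate peaks entirely at 41.8% of compact and 47.7% of wider sites. Its centre minus the mean of the replicate centres, a signed value, had a median of 0.25 bp (interquartile range −5.25 to 6 bp) at compact sites, with sites on either side.

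Compact sites were weaker than wider sites in all 3 lists. The combined −log10 q had a median of 15.2 (14.5 to 16.0; range 5.42 to 96.7) at compact sites and 22.8 (21.7 to 23.9; range 3.72 to 307) at wider sites. In replicate 1 the medians were 9.02 (8.49 to 9.65) and 13.2 (12.5 to 13.8), and in replicate 2 they were 6.46 (6.08 to 6.86) and 9.63. As ranks, the median compact site stood at 32.8% of the combined list, 45.5% of replicate 1 and 62.5% of replicate 2, and the median wider site at 20.8%, 30.0% and 41.7%. The strongest 10% of the combined list held 30 compact sites (5.47%) and 395 wider sites (26.3%). The width of a region may itself enter its q value, and this was not tested.

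**Figure D3:**
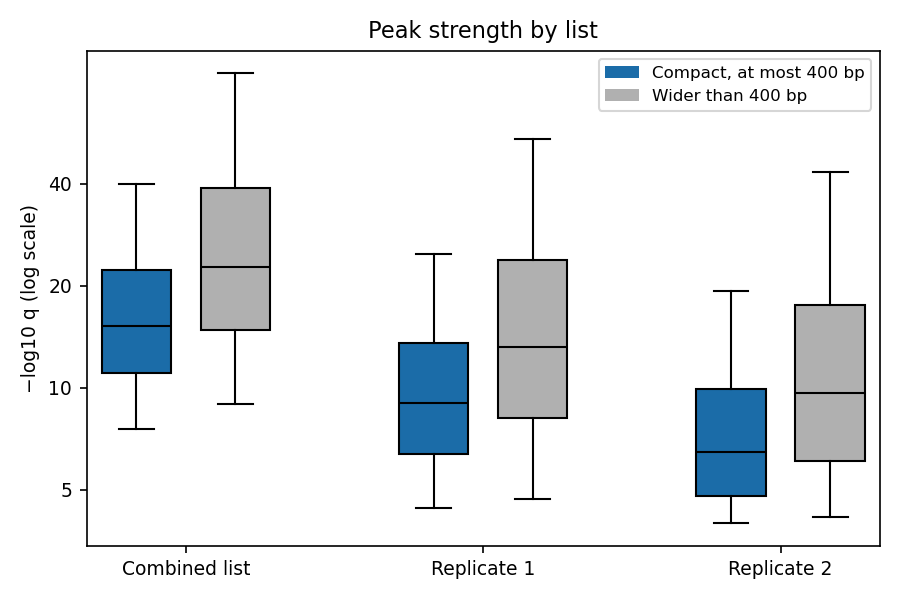
Peak strength as −log10 q on a log scale for 548 compact and 1504 wider sites in the combined, replicate 1 and replicate 2 lists. Boxes give the interquartile range with the median and whiskers the central 90%; compact medians of 15.2, 9.02 and 6.46 lie below wider medians of 22.8, 13.2 and 9.63.

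Compact sites were found less often in the strongest class. Strength class 1 held 181 of 548 compact sites (95% interval 29.1 to 37.1%) and 882 of 1504 wider sites (56.1 to 61.1%). Class 2 held 52.0% of the compact and 34.5% of the wider sites, and class 3 held 14.8% and 6.45%. In class 1, which has no upper bound, the median −log10 q in replicate 1 was 15.5 (14.7 to 17.1) at compact and 21.4 (20.1 to 22.7) at wider sites. Classes 2 and 3 are narrow bands of the combined q value, which leave little room for a difference in the replicates, and are not compared in this way.

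Replicate 1 gave the smaller q value at 447 of 548 compact sites (81.6%, 78.1 to 84.7%) and at 1234 of 1504 wider sites (82.0%, 80.0 to 84.0%). The difference of −0.479 percentage points (−4.41 to 3.16) did not exceed counting error. The combined q value was smaller than both replicate values at 546 of 548 compact sites (99.6%) and at 1478 of 1504 wider sites (98.3%). Divided by the sum of both replicates' −log10 q, the combined value gave a median ratio of 0.948 (0.933 to 0.961) at compact sites and 0.965 (0.952 to 0.974) at wider sites. In −log10 q, the rank correlation of replicate 1 with replicate 2 (Spearman's rho) was 0.76 over the compact and 0.87 over the wider sites, which differ in the range of strength they span.

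Within the compact sites, wider ones were stronger. The 37 members of at most 300 bp had a median combined −log10 q of 10.7, the 215 of 301 to 350 bp had 14.1 and the 296 of 351 to 400 bp had 17.2. Among the next wider sites the medians ran on to 19.6 at 401 to 450 bp, 19.3 at 451 to 500 bp and 18.7 at 501 to 600 bp. They were higher beyond that, at 22.4 at 601 to 800 bp, 25.5 at 801 to 1500 bp and 34.3 above 1500 bp.

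Compact sites were scarce on the X chromosome. X held 17 of 548 compact sites (3.10%, 1.82 to 4.92%) and 215 of 1504 wider sites (14.3%, 12.6 to 16.2%), a difference of −11.2 percentage points (−13.4 to −8.73). Chromosome position did not enter the rule. When presence in replicate 1 was enough, without replicate 2, X held 5% of 1000 compact and 14.7% of 1977 wider sites. Seen from the chromosomes, 7.33% (4.33 to 11.5%) of the X sites in both replicates were compact, against 29.2% (27.1 to 31.3%) of the autosomal ones. Relative to the largest peak coordinate of each chromosome, compact sites numbered 0.964 per Mb (0.561 to 1.54) on X and 6.44 per Mb (5.90 to 7.01) on autosomes. Wider sites numbered 12.2 per Mb (10.6 to 13.9) on X and 15.6 per Mb (14.8 to 16.5) on autosomes.

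The scarcity on X held at each strength with enough sites to compare. In strength class 1, 3 of 110 X sites (2.73%) and 178 of 953 autosomal sites (18.7%) were compact. In class 2, 10 of 95 (10.5%) and 275 of 709 (38.8%) were, and in class 3, 4 of 24 (16.7%) and 77 of 154 (50%). The differences were −16.0 (−19.1 to −10.4), −28.3 (−34.2 to −19.7) and −33.3 (−46.0 to −12.6) percentage points.

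Narrow peaks were also scarcer on X in each replicate's own list. Peaks of at most 400 bp made up 74 of 352 X peaks (21.0%) and 1178 of 2685 autosomal peaks (43.9%) in replicate 1. They made up 36 of 246 (14.6%) on X and 876 of 1942 (45.1%) on autosomes in replicate 2. Combined peaks that were not found in both replicates differed likewise, with 31.7% of 338 on X and 51.3% of 1866 on autosomes at most 400 bp wide.

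The share on X increased with width up to about 500 bp. It was 0 of 37 sites at most 300 bp wide (upper limit 9.49%), 1.40% at 301 to 350 bp and 4.73% (2.61 to 7.81%) at 351 to 400 bp. It was 6.45% (3.73 to 10.3%) at 401 to 450 bp and 13.7% (8.88 to 19.8%) at 451 to 500 bp, and lay between 15.5 and 18.0% in the wider bins. The share on X thus changed gradually across the 400 bp limit.

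**Figure D4:**
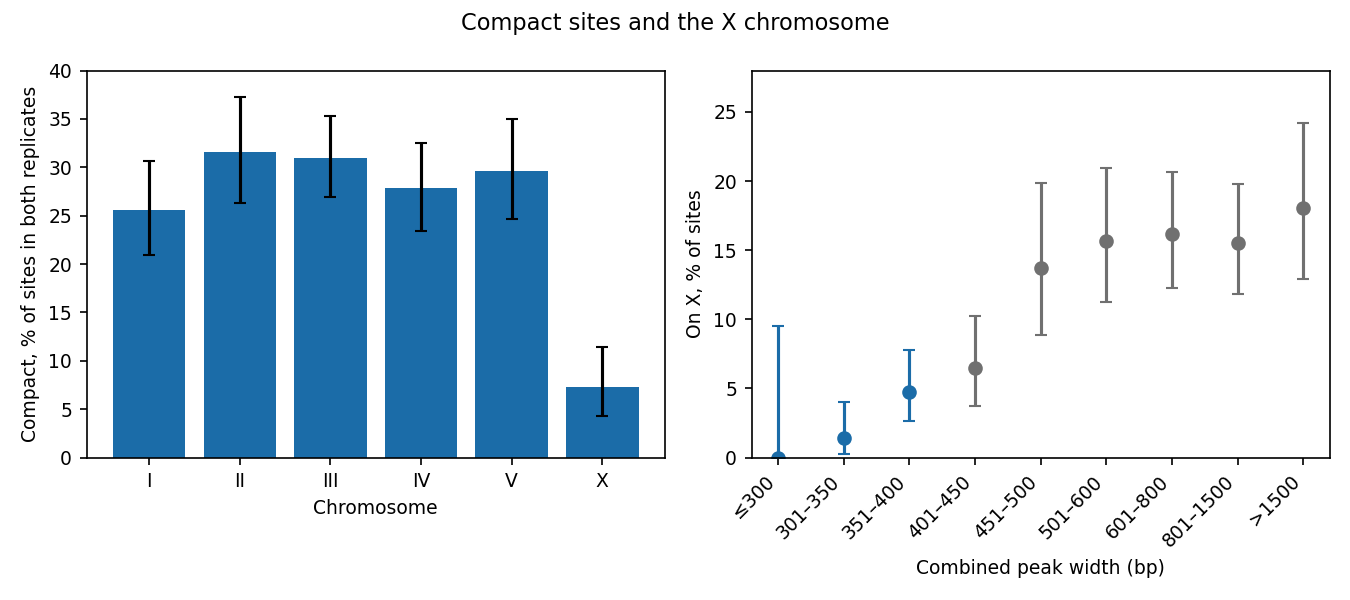
Left, compact sites as a percentage of the sites in both replicates on each chromosome; right, the percentage of sites on X in bins of combined width in bp, with compact bins in blue. Bars and points carry exact 95% binomial intervals; X stands at 7.33% on the left, below the autosomes at 25.5 to 31.6%.

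The 17 compact sites on X were spread along the chromosome, from 966046 to 16484982. They measured 317 to 397 bp, with a median of 374 bp (361 to 385 bp), and the 531 autosomal members had a median of 354 bp (349 to 357 bp). Their combined −log10 q had a median of 12.6 (10.7 to 16.4) on X and 15.3 (14.6 to 16.1) on autosomes. The median distance between their replicate centres was 9.5 bp (4 to 17 bp) on X and 11.5 bp (10.5 to 13.5 bp) on autosomes. The intervals overlapped for strength and for distance, and those for width did not.

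Among the autosomes compact and wider sites did not differ in distribution beyond counting error. Chromosome III held 153 of the 531 autosomal compact sites (28.8%) and 341 of the 1289 autosomal wider sites (26.5%). Chromosome IV held 109 (20.5%) of the compact and 283 (22.0%) of the wider, V 93 (17.5%) and 221 (17.1%), II 92 (17.3%) and 199 (15.4%), and I 84 (15.8%) and 245 (19.0%). The interval of each of the 5 differences included 0, and the largest was −3.19 percentage points (−6.81 to 0.737) on I. Compact sites numbered 11.1 per Mb (9.42 to 13.0) on III and between 4.45 per Mb on V and 6.24 per Mb on IV on the other autosomes.

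The compact sites on III had the smallest median width among the autosomes, at 341 bp, and the medians of the other autosomes lay between 356 and 361 bp. Median combined −log10 q was between 14.4 on IV and 16.2 on I. Median centre distance was between 10 bp on IV and 14 bp on III.

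In the share at chromosome centres, compact and wider sites did not differ beyond counting error. The central 50% of the autosomes held 286 of 531 compact sites (53.9%, 49.5 to 58.2%) and 709 of 1289 wider sites (55.0%, 52.2 to 57.7%), a difference of −1.14 percentage points (−6.18 to 3.86). The outer 25% on the left held 17.5% of the compact and 19.5% of the wider sites, and that on the right 28.6% and 25.5%. Chromosome by chromosome the central share of compact sites was 65.5% on I and 56.5% on II, and lower on III (50.3%), IV (52.3%) and V (48.4%). For wider sites it was 53.9% on I and 56.8% on II, with III at 53.1%, IV at 54.4% and V at 58.4%. The intervals of the differences on I (−0.685 to 22.8) and V (−21.7 to 2.01) reached across 0. On X 7 of 17 compact sites (41.2%, 18.4 to 67.1%) and 97 of 215 wider sites (45.1%) were central.

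Compact sites stood farther from other peaks than wider sites taken as a whole. The gap from the edge of a site to the nearest edge of any other combined peak had a median of 5784 bp (5098 to 6335 bp) at compact sites and 3554 bp (3289 to 4028 bp) at wider sites. By width the median was 5542 bp at 351 to 400 bp, 5637 bp at 401 to 450 bp and 5754 bp at 451 to 500 bp. It was 4856 bp at 501 to 600 bp, 3402.5 bp at 601 to 800 bp and 1736 bp above 1500 bp. The larger gap was thus shared by the wider sites nearest in width to the members. A neighbour within 2000 bp was found at 114 compact sites (20.8%, 17.5 to 24.4%) and at 530 wider sites (35.2%, 32.8 to 37.7%), a difference of −14.4 percentage points (−18.5 to −10.1). Gaps of more than 20000 bp were found at 78 compact (14.2%) and 173 wider sites (11.5%), a difference of 2.73 points whose interval (−0.446 to 6.25) included 0. The curves stood apart at short gaps and close together at long ones. On autosomes alone the shares within 2000 bp were 21.1% of compact and 36.5% of wider sites.

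**Figure D5:**
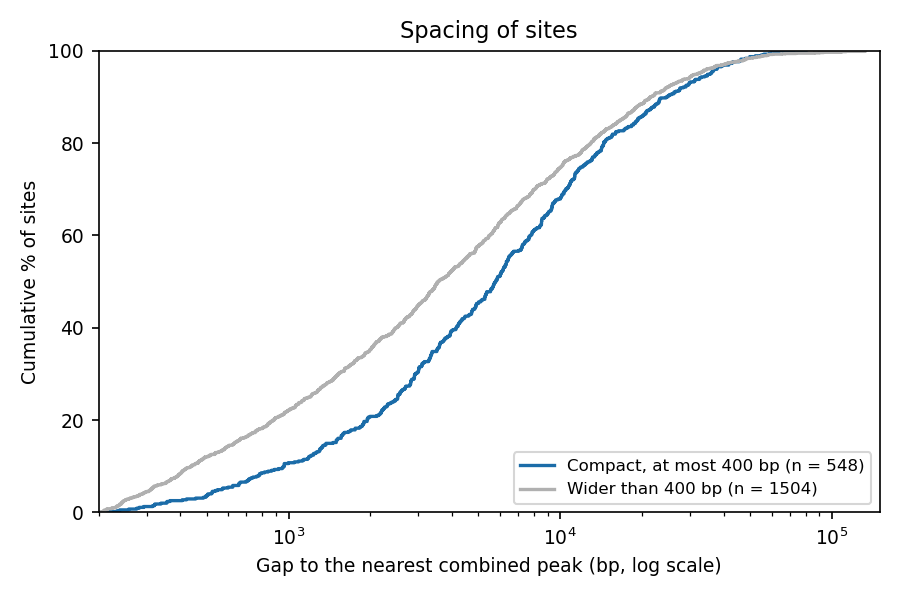
Cumulative percentage of sites against the gap in bp, on a log scale, to the nearest other combined peak, for 548 compact and 1504 wider sites. At 2000 bp the compact curve stands at 20.8% and the wider curve at 35.2%, and the curves draw together at longer gaps.

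The share with a close neighbour grew with width among the wider sites. It was 27.0% of the 37 sites at most 300 bp wide, 17.2% at 301 to 350 bp, 22.6% at 351 to 400 bp and 21.0% at 401 to 450 bp, then 28.0% at 451 to 500 bp, 27.1% at 501 to 600 bp, 36.1% at 601 to 800 bp, 44.4% at 801 to 1500 bp and 52.1% above 1500 bp. The difference was also seen within strength classes 1 and 2. A neighbour that close stood at 24.9% (18.8 to 31.8%) of compact and 38.4% (35.2 to 41.7%) of wider sites in class 1, and at 18.2% (13.9 to 23.2%) and 29.9% (26.0 to 34.0%) in class 2. In class 3 the intervals of 21.0% (12.7 to 31.5%) and 34.0% (24.7 to 44.3%) overlapped.

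The neighbours of compact sites were of all kinds. The nearest combined peak was another compact site at 84 members (15.3%), a wider site at 185 (33.8%) and a peak not found in both replicates at 279 (50.9%). These kinds made up 12.9%, 35.3% and 51.8% of the combined list. Most compact sites had no compact neighbour in the list. With compact sites at 12.9% of the list, most would stand singly in a random order too, and the runs were not compared with one. Along the chromosomes 380 stood singly, 61 pairs and 14 triplets followed each other without another peak between them, and 1 run held 4. Another compact site lay within 2000 bp at 16 members (2.92%), and a compact site lay that close at 44 of 1504 wider sites (2.93%).

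The most isolated member lay on II from 12459359 to 12459748, with 80273 bp to the nearest combined peak. Its peak spanned 390 bp (combined), 330 bp in replicate 1 and 359 bp in replicate 2, and its −log10 q was 20.8, 14.6 and 7.94 in the same order. The next, on V from 5684521 to 5684903, stood 64853 bp from its neighbour. The closest pair of members lay on V, from 4730717 to 4731080 and from 4731397 to 4731765, 316 bp apart. The first had widths of 309 bp in replicate 1 and 302 bp in replicate 2 and the second 313 and 283 bp, so both replicates kept the pair as separate peaks.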

How the data were processed

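Peaks from 2 NFYA-1 ChIP samples were analysed as 3 lists. Each list holds start, end and a q-value per peak as deposited by the authors, with PeakSeq and build WormBase WS180 named per the file headers and columns. Not given in the sources used here are the aligner, tool versions, filters, controls and the way of combining replicates. Depth is unknown.

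For each combined peak the replicate peak with the largest overlap was taken. Centres are midpoints, and gaps run edge to edge. The central 50% lies between 25% from each end of the largest peak coordinate of a chromosome. Shares carry Clopper-Pearson intervals, differences Newcombe intervals and medians order-statistic intervals, at 95%. With 2 ChIP samples no test over samples was made. The member count was checked with bedtools 2.31.1, and the code was tested on simulated lists (python 3.11.15, numpy 2.4.6, pandas 2.3.3, scipy 1.17.1, matplotlib 3.10.9).

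Members were chosen with earlier results of these data known. Named sites are the 3 with the smallest q values on each chromosome and those extreme in centre distance, width ratio, width, isolation or closeness, or next to the limit. The comparisons on X by strength, by list and by width bin, and the centre distance and width ratio by width bin, were added after the data were seen.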

Additional observations from a re-analysis of the deposited data

How the results depend on the processing

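The 11 values of the comparisons were recomputed under 18 alternatives, 117 recomputations in all. In 17 of them, those with wider sites under 1500 bp or with one-to-one matches, the compact sites are the same by construction and the wider sites alone could change, and 1 was in another unit. Of the other 99, 66 stayed within the reported interval (or within 1.5 times for the member count), 32 moved and 1 reversed. In all of them compact sites had the smaller centre distance, the smaller width ratio, the smaller share on X, the larger gap and the smaller share with a close neighbour than wider sites. Replicate order and the central share, which did not differ beyond counting error, changed order under some settings.

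A width limit of 350 bp left 252 members, with median ranks at 37.8% of the combined list, 52.9% of replicate 1 and 68.2% of replicate 2, 77.8% stronger in replicate 1 and 1.19% on X. At 450 bp the ranks were 30.3%, 41.9% and 58.7%. In the stronger 50% of the combined list they were 29.7%, 40.6% and 57.1%, since weak sites are left out. Within strength classes of that list the compact ranks were 16.5%, 23.8% and 32.5% in class 1, 36.6%, 51.6% and 69.7% in class 2, and 57.2%, 75.0% and 87.1% in class 3. In class 3, a narrow band of q value, the order against wider sites in replicate 2 reversed, with 87.1% for compact and 87.7% for wider sites, while the intervals overlapped. Limits on replicate widths were added after seeing the data. On replicate 1 width the combined rank was 31.1%. On replicate 2 width there were 856 members, a log2 width ratio of 0.12, a combined rank of 31.0% and a replicate 1 rank of 42.4%. With membership decided by 1 replicate, leaving out replicate 1 or replicate 2, there were 583 to 1000 members, the combined rank was 33.8 to 47.2% and the share on X 3.09 to 5%; the higher values came without replicate 2. The central 33% held 33.9% of autosomal compact and 35.9% of wider sites, and the central 60% held 66.5% and 64.7%. Against neighbours found in both replicates the gap was 12502 bp, and 10.9% had one within 2000 bp.

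No paired analysis was possible because inputs, numbered like the ChIP samples, have no peak list in this data. Unknown depth limits every statement on strength.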
